A study of Mus musculus with 2 samples.

Results

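The miR-34 and miR-449 microRNAs were read in unwounded mouse skin and unwounded mouse oral mucosa with 2 Cy5-labelled microarrays, 1 of each tissue. The members were the 7 probes named for an arm of miR-34a, miR-34b or miR-34c or for miR-449a-5p, of 1892 microRNA probes on each array. The remaining 4 mouse miR-449 probes of the arrays were read beside them. For either tissue, 2 µg of total RNA from a pool of 3 mice was hybridised, with both tissues taken from matched animals. The study's methods describe its mice as female Balb/c animals of 8 to 10 weeks, with wounds placed on dorsal skin and hard palate. The arrays received unwounded baseline skin and oral mucosa with no treatment, and the labels used here name no site within either tissue. As each tissue has 1 array of pooled RNA, there is no replicate across pools, the tissues could not be tested against each other, and tissue cannot be told apart from pool or array. The SDs below come from the 2 repeat spots of each probe and cover error within an array only.

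MicroRNAs are short RNAs that pair with messenger RNAs, mainly through bases 2 to 8 at their 5′ end (the seed), and lower the output of those messages. The miR-34 genes are direct transcriptional targets of p53, and their -5p arms are known to repress cell cycle and survival genes such as Ccnd1, Cdk6, Met and Bcl2. MiR-449 carries the same seed from another locus and, with miR-34b and miR-34c, is best known from multiciliated epithelia and testis. In keratinocytes, p63 is known to hold miR-34a and miR-34c down.

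The sequences are shown first because the grouping of the members rests on them. Capitals mark the seed, and the sequences are the deposited target sequences of the probes, 6 of which matched a mature RefSeq entry of GRCm38.p6 with the same sequence, while that of miR-34c-5p was located in the RefSeq hairpin. The -5p arms share the seed GGCAGUG:
mmu-miR-34a-5p: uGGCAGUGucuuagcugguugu
mmu-miR-34b-5p: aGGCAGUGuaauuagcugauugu
mmu-miR-34c-5p: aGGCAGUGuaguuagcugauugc
mmu-miR-449a-5p: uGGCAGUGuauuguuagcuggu
The -3p arms of miR-34b and miR-34c share the seed AUCACUA, and that of miR-34a differs from it:
mmu-miR-34b-3p: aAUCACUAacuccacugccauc
mmu-miR-34c-3p: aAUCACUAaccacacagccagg
mmu-miR-34a-3p: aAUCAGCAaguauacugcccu

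The seed GGCAGUG was found in 6 of the 1892 target sequences on the array, or 0.317%, which were the 4 members above with miR-449b and miR-449c-5p. The seed AUCACUA was found in 2, both of them members. Beyond the seed the members differ to an unequal degree. MiR-34b-5p and miR-34c-5p are both 23 bases long and match at 21 positions, with the substitutions A11G and U23C from miR-34b-5p to miR-34c-5p, counted from 1 at the 5′ end. MiR-34a-5p and miR-449a-5p match at 15 of 22 positions, and miR-34b-3p and miR-34c-3p at 17 of 22. How far a probe also read the RNA of a near relative was not tested.

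The precursors lie at 3 loci. In GRCm38.p6, miR-34a-5p is at chr4:150068473-150068494 and miR-34a-3p at chr4:150068517-150068537, both on the plus strand, in a place that no other RefSeq gene spans. MiR-449a-5p is at chr13:113037549-113037570 on the plus strand, within the span of Cdc20b, a protein-coding gene that also spans Mir449b and Mir449c. The hairpins of Mir34b (chr9:51103562-51103645) and Mir34c (chr9:51103034-51103110) lie on the minus strand of chromosome 9, close to each other and within the spans of the protein-coding genes Btg4 and Hoatz. Within them, miR-34b-3p occupies chr9:51103574-51103595 and miR-34c-5p chr9:51103076-51103098. Whether these positions are exonic or intronic was not determined here. The hairpins of this pair are printed because their 4 arms gave unlike readings, and here the capitals mark the -5p arm and then the -3p arm:
Mir34b: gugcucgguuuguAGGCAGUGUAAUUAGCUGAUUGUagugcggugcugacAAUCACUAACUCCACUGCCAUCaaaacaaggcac
Mir34c: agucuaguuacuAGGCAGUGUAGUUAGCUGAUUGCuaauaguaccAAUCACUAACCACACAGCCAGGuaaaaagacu

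Brightness was deposited in scanner units without background subtraction. The mean of the 16 empty spots was 36.4 ± 7.84 (SD) for skin and 51.9 ± 6.65 (SD) for oral mucosa, and a probe counted as detected when its mean exceeded that of the empty spots by more than 3 SD, which is 59.9 for skin and 71.8 for oral mucosa. Of the 7 members, 4 were detected on at least 1 array, against 29.7% of all microRNA probes. MiR-34a-5p and miR-34c-3p were detected on both arrays, miR-34b-3p and miR-34c-5p on the oral mucosa array only, and none on the skin array only. The 2 detected in oral mucosa only stand beside 6.13% of all probes with that pattern. MiR-34a-3p, miR-34b-5p and miR-449a-5p were detected on neither array. All 7 members were brighter in scanner units on the oral mucosa array, as were 91.3% of all probes, so this count carries no information on the family.

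**Figure D1:**
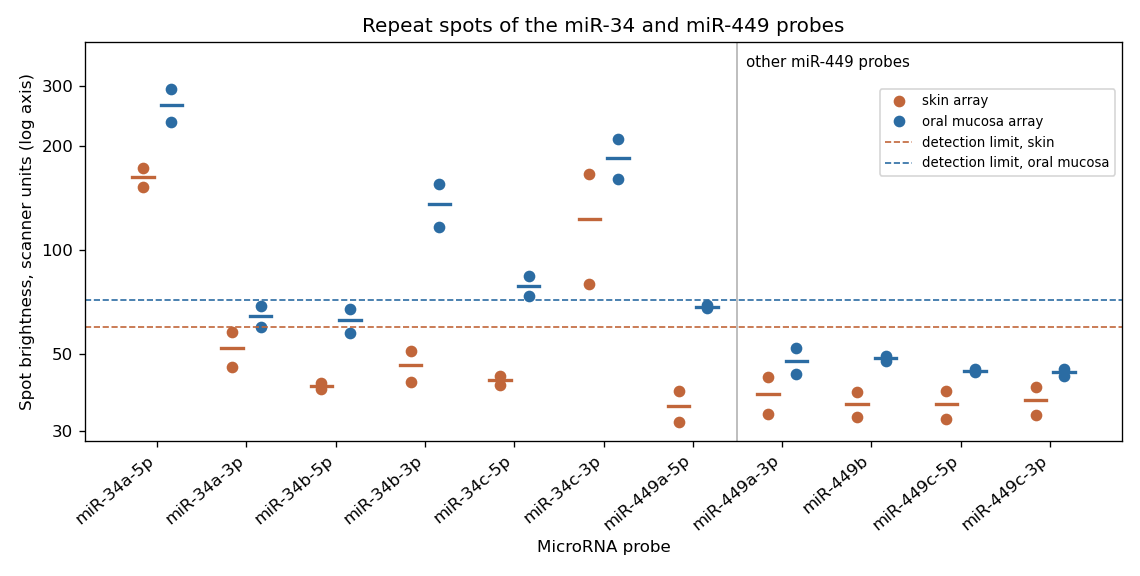
Brightness in scanner units (log axis) of the 2 repeat spots (points) and their mean (bars) for each of the 7 members and the 4 other miR-449 probes on the skin and the oral mucosa array, with each array's detection limit as a dashed line. The spots of miR-34a-5p and miR-34c-3p lie above both limits, those of miR-34b-3p and miR-34c-5p lie above the limit in oral mucosa only, and the miR-449 spots lie below their array's limit.

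To compare the arrays, signals were put through Variance Stabilizing Normalization (VSN), in which every array gets its own fitted offset and scaling factor and the result runs parallel to log2 at high signal. Differences are oral mucosa minus skin on this scale, and a value of at least 1 in either direction, a 2-fold change, served as the size rule. Pooled over the microRNAs detected on each array, the repeat-spot SD on this scale was 0.96 for skin and 0.37 for oral mucosa. A difference past the rule can thus lie within the error inside the arrays. Where only 1 array detected a microRNA, the other array stood at the higher of its own signal for that probe and its lowest detected signal, so that the fold is a lower bound on the VSN scale only. VSN takes an offset from each array, so its folds can exceed the ratio of the scanner values, which hold background. Of the 562 microRNAs detected on either array, 28.5% passed the size rule, and 13.7% passed it with higher signal in oral mucosa. Among the 4 detected members 1 passed, miR-34b-3p, with higher signal in oral mucosa, and 0 passed with higher signal in skin. The median difference of the 4 was 0.30, beside -0.004 over all detected microRNAs, and 0.65 beside 0.40 with no normalization between arrays. A share of 1 in 4 is close to the background share of 28.5%. MiR-34b-3p and miR-34c-5p are among the 4 only through the oral mucosa array, which favours differences above 0. Nothing about the family is therefore read from this share or from the median.

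The -5p arm of miR-34a, the most broadly expressed member of the family, was detected in both tissues. Its spots read 173 and 152 on the skin array and 293 and 235 on the oral mucosa array. Both oral mucosa spots lay above both skin spots in brightness and on the VSN scale described above, on which this held for 37.9% of the detected microRNAs. The means lay 16.1 SD in skin and 31.8 SD in oral mucosa above the empty spots. After VSN the difference was 0.34 (SD 0.32 from repeat spots), a 1.27-fold higher signal in oral mucosa that did not reach the size rule and was about as large as the error within the arrays. The difference was above 0 under all 6 other normalizations, value sources or background corrections, between 0.24 and 0.70. These settings rework the same 2 arrays, so a shared sign is no further support for a difference. The other arm, miR-34a-3p, read 57.9 and 45.9 in skin and 68.7 and 59.99 in oral mucosa. Its means lay 1.98 and 1.88 SD above the empty spots, below the limit on each array, so no difference is given for it.

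From the Mir34b hairpin the 2 arms gave unlike readings. MiR-34b-3p read 51.2 and 41.5 on the skin array, both under the limit, and 156 and 117 on the oral mucosa array, both well over it. The groups of spots did not overlap, on the VSN scale as well, where both oral mucosa spots were the higher for 37.9% of the detected microRNAs. Its oral mucosa signal of 136 ± 27.6 (SD of 2 repeat spots) lay 12.7 SD above the empty spots, against 1.28 SD in skin. Set against the lowest detected skin signal, it was at least 2.95-fold higher in oral mucosa on the VSN scale, a log2 difference of 1.56 (SD 0.45 from the oral mucosa spots). This call depended on the scaling: the difference stayed above 0 in the same 6 settings but missed the size rule after quantile normalization (0.76) and when the arrays were scaled to their median (0.88) or 75th percentile (0.73). It was also below the size rule, at 0.79, with the detection limit at 5 SD. The other arm of the same hairpin, miR-34b-5p, was not detected. Its spots read 41.1 and 39.7 in skin and 67.6 and 57.6 in oral mucosa, the latter 1.61 SD above the empty spots.

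From the Mir34c hairpin, the -3p arm was detected on both arrays and the -5p arm on the oral mucosa array only. MiR-34c-5p, which carries the seed GGCAGUG, read 43.3 and 40.6 in skin and 84.1 and 73.8 in oral mucosa. Its oral mucosa mean of 79.0 ± 7.33 (SD of 2 repeat spots) exceeded the limit of 71.8 by about its own spread, and its skin mean lay 0.71 SD above the empty spots. Against the lowest detected skin signal the bound was 1.08-fold, a log2 difference of 0.11 (SD 0.32 from the oral mucosa spots). The sign of that bound turned after quantile (-0.06) and 75th-percentile scaling (-0.05) and from the second repeat spot alone (-0.26), while it was 0.40 with no normalization, 0.45 from the first repeat spot, 0.50 on the authors' processed values and 0.72 with detection at 2 SD. The scanner spots did not overlap between the arrays, but 91.3% of all probes were brighter on the oral mucosa array, so nothing is read from this. The bound is too close to 0 to give a direction. MiR-34c-3p, which shares the seed of miR-34b-3p, read 166 and 79.8 in skin and 209 and 161 in oral mucosa. Its spots overlapped between the arrays because the 2 skin spots differed so much. The difference was 0.25 with an SD of 1.19 from repeat spots, and it was -0.06 from the first spot of each array alone and 0.88 from the second. Whether miR-34c-3p differs between the arrays cannot be read from these spots.

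**Figure D2:**
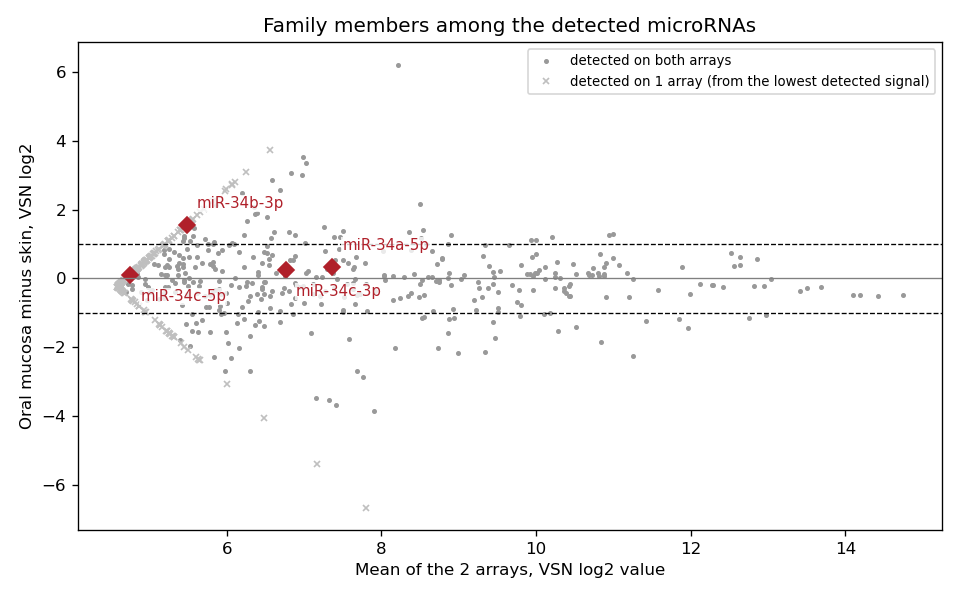
VSN log2 difference (oral mucosa minus skin) against the mean VSN log2 value of the 2 arrays for the 562 microRNAs detected on either array, with the 4 detected members as red diamonds and the size rule as dashed lines. Crosses mark microRNAs detected on 1 array, drawn at their difference from the lowest detected signal of the other, and miR-34b-3p at 1.56 is the member beyond the size rule.

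The miR-449 probes were dim on both arrays. MiR-449a-5p read 39.1 and 31.8 on the skin array, at the level of the empty spots, and 69.3 and 67.9 on the oral mucosa array, just under the limit of 71.8. Its oral mucosa mean lay 2.52 SD above the empty spots and its skin mean 0.12 SD below them (-0.12). Of the 1330 probes detected on neither array, 21, or 1.58%, read as bright as that or brighter in oral mucosa. With the limit set at 2 SD in place of 3 SD, miR-449a-5p counted as detected in oral mucosa. The other miR-449 probes, namely miR-449a-3p, miR-449b, miR-449c-5p and miR-449c-3p, showed nothing of this kind. They read between 35.8 and 38.3 in skin and between 44.3 and 48.7 in oral mucosa, the latter below the mean of the empty spots in each case. The opposite arm of miR-449a and the neighbouring hairpins were thus not detected at this signal over background, which does not show that they are absent.

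**Figure D3:**
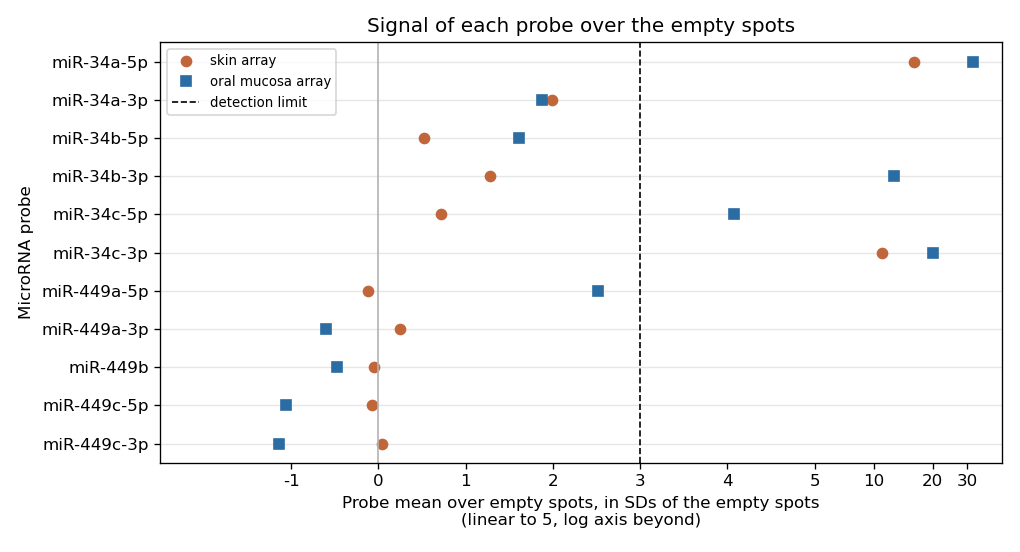
Mean signal of each family probe above the mean of the empty spots of the same array, in SDs of the empty spots (linear to 5 and logarithmic beyond), for the skin and the oral mucosa array. MiR-449a-5p reaches 2.52 SD in oral mucosa, short of the limit of 3 SD, while the other 4 miR-449 probes lie between -1.14 and 0.25 on both arrays.

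By seed, the 4 members with GGCAGUG ranged from miR-34a-5p, detected on both arrays, through miR-34c-5p, close to the limit in oral mucosa, to miR-34b-5p and miR-449a-5p, below it. Of the 2 members with AUCACUA, miR-34c-3p was detected on both arrays and miR-34b-3p in oral mucosa only. Brightness is not read as the relative amount of different microRNAs, here or in the marker lists below, since each probe binds with its own strength. On the VSN scale both oral mucosa spots lay above both skin spots for miR-34a-5p, miR-34b-3p and miR-34c-5p, or 3 of the 4 detected members, against 37.9% of the detected microRNAs. MiR-34b-3p and miR-34c-5p are among the 4 only through the array on which they are brighter, so this count was favoured by the detection filter and nothing is read from it.

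The authors also deposited 1 processed intensity for each microRNA and array, whose background subtraction and scaling are not given in the sources used here. These values were 138 in skin and 186 in oral mucosa for miR-34a-5p, 7 and 69 for miR-34b-3p, 3 and 25 for miR-34c-5p, and 96 and 113 for miR-34c-3p. For the members below the limit they were 14 and 14 for miR-34a-3p, 2 and 13 for miR-34b-5p and 0 and 18 for miR-449a-5p. On the scale log2(value + 50) the difference of miR-34b-3p was 1.06, which passed the size rule, and that of miR-34a-5p was 0.33. The order of the tissues was thus the same as in the scanner values for each detected member. Both sets of values belong to the same 2 arrays, so this is no independent support.

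**Figure D4:**
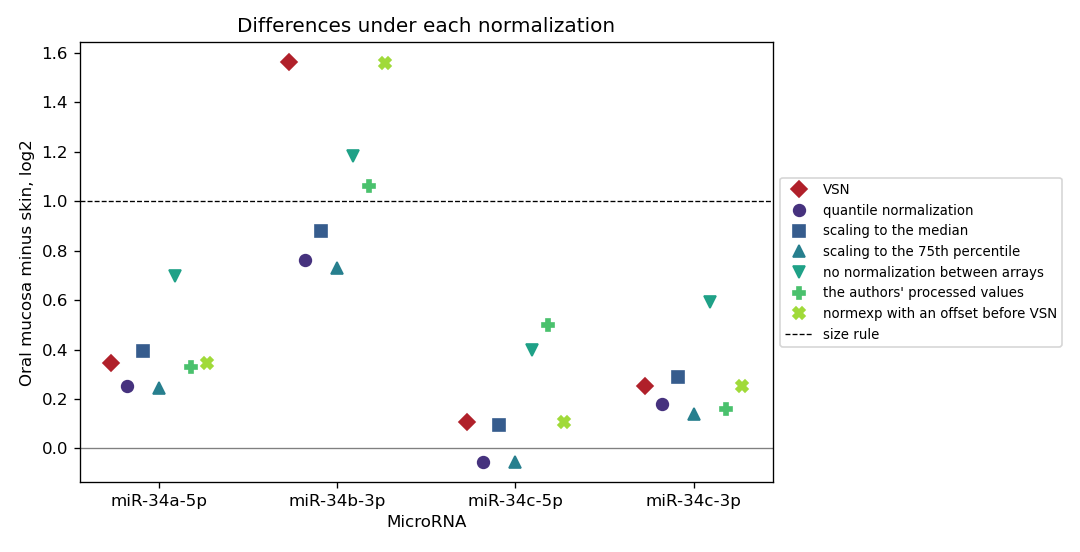
Log2 difference (oral mucosa minus skin) of the 4 detected members with VSN and under 6 other normalizations, value sources or background corrections, with the size rule at 1 as a dashed line. MiR-34b-3p lies between 0.73 and 1.56 and crosses the size rule, miR-34c-5p crosses 0, and miR-34a-5p and miR-34c-3p stay between 0 and the size rule.

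The place of the spots on the array was examined, because the 6 miR-34 probes sit next to each other, in rows 12 to 17 of column 22 and again in rows 82 to 87 of column 6. Over the other probes within 3 rows and 3 columns of a member's spot, the median brightness ran from 36.3 to 53.8 in skin and from 49.6 to 60.5 in oral mucosa. Among those of them detected on both arrays, the median VSN difference ran from -0.59 to 0.14, and around both spots of miR-34b-3p it was -0.59 and -0.50. The part of the surroundings in the reading of miR-34b-3p was not tested. Around the second spot of miR-449a-5p the surroundings were dimmer in skin, with a median of 36.3 beside 42.8 for the whole array, and brighter in oral mucosa, with 55.1 beside 52.7. The part of this in the reading of miR-449a-5p was not tested.

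Other microRNAs linked to p53, whose transcription or processing it is known to raise, were read for comparison. Of the 13 listed, the 11 analysed here were all detected. The size rule was met by 3 of the 11 toward oral mucosa and by 1 toward skin, or 4 of 11 against the background of 28.5%, and their median difference was 0.002. MiR-16-1-3p, the lesser arm of a precursor whose processing p53 promotes, read 50.3 and 52.6 in skin and 247 and 271 in oral mucosa, at least 6.98-fold higher there on the VSN scale. That is a log2 difference of 2.80, which ran from 1.66 to 2.80 under the 6 other settings. MiR-143-3p, a microRNA abundant in smooth muscle and fibroblasts, read 57.3 and 56.7 in skin and 172 and 167 in oral mucosa, at least 4.05-fold higher there on the VSN scale. That is a log2 difference of 2.02, which ran from 1.04 to 2.02 under those settings. MiR-145a-5p, made from the same precursor transcript as miR-143, gave a difference of 1.78 (SD 0.21 from repeat spots), which ran from 1.15 to 1.78 under those settings. The spots of these 3 did not overlap between the arrays. On the VSN scale both oral mucosa spots lay above both skin spots for 37.9% of the detected microRNAs. MiR-16-1-3p and miR-143-3p were detected in oral mucosa only, which favours such a pattern, so nothing is read from it.

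In the other direction stood miR-200c-3p, which keeps epithelial cells epithelial by repressing Zeb1 and Zeb2. It read 4144 and 3092 in skin and 2497 and 1801 in oral mucosa, and its VSN difference was -1.22 (SD 0.46). After quantile normalization, and on unnormalized values, it missed the size rule. MiR-192-5p, miR-194-5p and miR-215-5p, which p53 also induces, gave -0.43, 0.002 and 0.58 and did not pass. MiR-107-3p, miR-16-5p, miR-141-3p and miR-15a-5p gave 0.13, -0.34, -0.17 and -0.92 and did not pass either. The p53-linked microRNAs thus differed among themselves in direction, as the 4 that passed did.

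**Figure D5:**
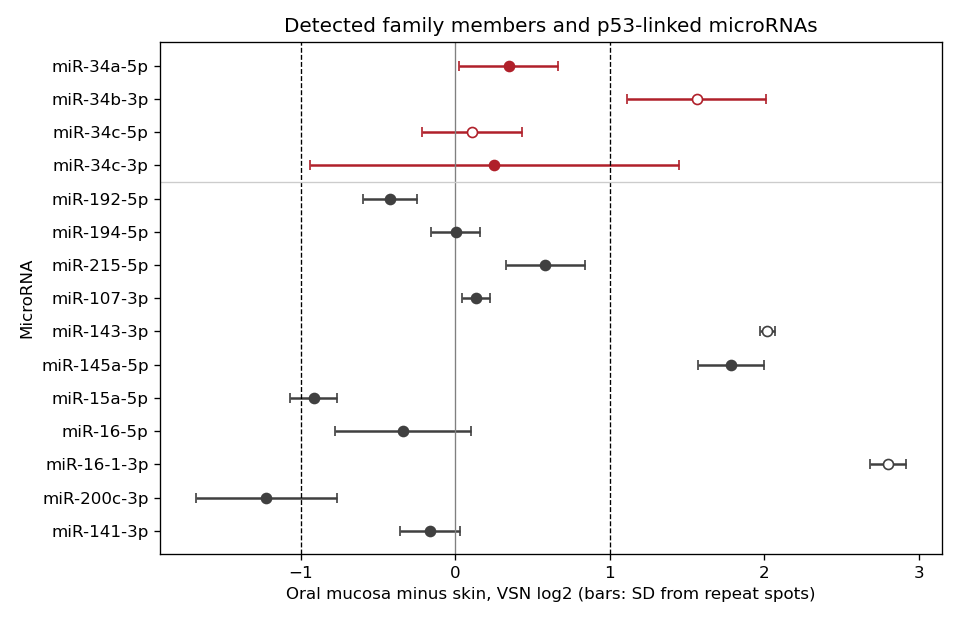
VSN log2 difference (oral mucosa minus skin) of the 4 detected members (red) and the 11 other p53-linked microRNAs (black), with bars for the SD from repeat spots and the size rule as dashed lines. Open circles are differences from the lowest detected skin signal, and miR-34b-3p, miR-143-3p, miR-145a-5p and miR-16-1-3p lie beyond the size rule toward oral mucosa and miR-200c-3p toward skin.

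The tissues were checked through microRNAs that mark cell types. The labels call the samples skin and oral mucosa, and the study's methods speak of epithelium. All 7 keratinocyte microRNAs were detected on both arrays, with miR-205-5p the brightest at 22415 in skin and 21673 in oral mucosa, and their summed brightness was 49225 in skin and 48779 in oral mucosa. The size rule was met by miR-429-3p toward oral mucosa and by miR-200c-3p toward skin, beside 28.5% of the detected microRNAs in either direction. The median difference of the 7 was -0.48. MiR-200c-3p missed the rule after quantile normalization (-0.95) and on unnormalized values (-0.75), while miR-200a-3p passed it on unnormalized values (1.12). Markers of other cell types were read in the same way. All 5 mesenchymal microRNAs (miR-199a-3p, miR-199a-5p, miR-214-3p, miR-143-3p and miR-145a-5p) were higher in oral mucosa by the size rule with VSN, against 13.7% of the detected microRNAs, with a summed brightness of 516 in skin and 1871 in oral mucosa and miR-214-3p the brightest at 948. MiR-199a-5p, at 1.01, was the nearest to the size rule, and without it 4 of the 5 passed in 4 of the 6 other settings, where its difference was between 0.51 and 0.71. That list shares miR-143-3p and miR-145a-5p, and the keratinocyte list miR-200c-3p and miR-141-3p, with the p53-linked list.

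Of the other marker lists, the endothelial miR-126a-3p passed the limit on the oral mucosa array alone, at 155.3, and miR-126a-5p on neither, with sums of 81.6 in skin and 200.2 in oral mucosa. Of the red cell microRNAs, miR-451a was the brightest, at 3056 in oral mucosa and 67.3 in skin. It passed the size rule toward oral mucosa with VSN, at 6.21, and in all 6 other settings. MiR-144-3p and miR-144-5p were below the limit on both arrays, and the sums of the list were 141.4 in skin and 3154 in oral mucosa. Of the 4 leukocyte microRNAs analysed here, miR-150-5p, the brightest at 248 in oral mucosa, and miR-146a-5p passed the size rule toward oral mucosa with VSN, against the same 13.7%, while miR-223-3p and miR-155-5p were below the limit on both arrays, with sums of 212 and 496. MiR-146a-5p, at 1.05, missed the size rule in 5 of the 6 other settings, and miR-126a-3p, at 1.84, missed it in 2. Of the 4 skeletal muscle microRNAs 0 passed, against 28.5% of the detected microRNAs in either direction. MiR-1a-3p was below the limit on both arrays and so could not pass. MiR-206-3p was the brightest at 177 in oral mucosa, and the sums of the list were 297 in skin and 428 in oral mucosa. The part of these cells in the reading of miR-34b-3p was not tested, and in RNA pooled over cells, more cells of a type cannot be told apart from more RNA per cell.

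For the 2 members detected on both arrays, the microRNAs with the most similar pair of VSN values over the 2 arrays were sought among those detected on both. Nearest to miR-34a-5p were miR-3473f, miR-346-3p and miR-3569-5p, at distances of 0.10, 0.14 and 0.14 on the VSN log2 scale. Nearest to miR-34c-3p were miR-7025-3p, miR-6975-3p and miR-7212-3p, at 0.10, 0.14 and 0.20. With 2 values for each microRNA such nearness describes these arrays only.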

How the data were processed

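MicroRNA levels were read in pooled RNA of unwounded skin and oral mucosa, 1 array each (MRA-1002 miRmouse v21 of LC Sciences). The authors deposited scanner intensity, the median Cy5 brightness of each spot, with no background subtracted and no normalization between arrays, and a table with 1 processed intensity per microRNA and array, which the sources used here do not tie to a method. The study's methods name VSN with CyberT for its array analysis, without saying whether these values came from it. Arrays were assigned to tissues from the sample labels.

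The 2 repeat spots of each of 1892 microRNA probes were averaged, and the 184 control spots were left out except the 16 empty spots, which set the detection limit. VSN, which the study's methods name, was fitted in Python 3.11.15 (numpy 2.4.6, scipy 1.17.1, pandas 2.3.3) by maximum likelihood with an arsinh transformation and least trimmed squares, trimmed to 90% within 5 signal slices save the dimmest, from several starts. This gave offsets of 37.9 (skin) and 46.3 (oral mucosa) and an oral mucosa to skin scale ratio of 1.37. Normexp correction used limma 3.58.1 in R 4.3.3. The SD beside a difference is the root of the summed squares of both arrays' repeat-spot SDs, or that of the detecting array alone.

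The size rule replaced a test, since there is 1 array per tissue, and precision is limited by that number. The members, lists, limit and alternatives were chosen with earlier results of these data known. Named were all 7 members, the other miR-449 probes, probes sharing a member's seed, p53-linked microRNAs, cell type markers, and the 3 microRNAs nearest to each member detected on both arrays. Any named beyond these were chosen after their values were seen. Alternatives were other normalizations, the processed intensities on the scale log2(value + 50), normexp with an offset of 50, each repeat spot alone, other detection limits, the edge columns 1 and 2 left out, and thresholds of 1.5-fold and 4-fold. Listed microRNAs without values here were not analysed. Precursors were named from RefSeq (GRCm38.p6).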

Additional observations from a re-analysis of the deposited data

How the results depend on the processing

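No paired analysis was possible because neither tissue has a repeat array. The number of microRNAs past the size rule, 160 with VSN, was 80 after quantile normalization, 85 when arrays were scaled to their median, 85 when scaled to their 75th percentile, 102 without normalization, 87 with the authors' processed values, 256 and 46 at thresholds of 1.5-fold and 4-fold, and 577 without a detection filter, the last 3 by their construction. With no normalization 78.4% of the calls were higher in oral mucosa, against 48.1% with VSN, and the median of all detected microRNAs was 0.40. Of the members 1 passed with VSN, 0 after quantile, median or 75th-percentile scaling, with detection at 5 SD or with the 4-fold threshold, and 4 without a detection filter, where miR-34b-5p, miR-34c-5p and miR-449a-5p joined miR-34b-3p, each with a skin signal below the limit. Of the p53-linked list 4 passed, and 2 at the 4-fold threshold. The difference of miR-34b-3p, 1.56 with VSN, was 0.76, 0.88 and 0.73 with quantile, median and 75th-percentile scaling, 1.06 with the processed values, 1.02 from the second repeat spot, and 2.17 and 0.79 with detection at 2 SD and 5 SD, which move the lowest detected signal. That of miR-34c-5p, 0.11, was 0.50 with the processed values, 0.45 and -0.26 from the first and the second repeat spot, and 0.72 with detection at 2 SD, and at 5 SD it was not detected. That of miR-34a-5p, 0.34, was 0.70 with no normalization. Where construction does not give the reason, the cause was not tested. The number of members detected, 4, was 5 at 2 SD and 3 at 5 SD. Signal over background limits these values, since 3 of the 7 members were below the limit on both arrays.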
